A study of Homo sapiens with 18 samples.

Results

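The 5 genes described here, DLC1, ZNF608, TGM5, TFPI2 and MYOF, were followed through induction of PPP2R3B in the melanoma cell lines SKMEL2 and SKMEL30. They are 5 of the 58051 genes in the deposited count table and were picked because each had a small p on induction, or between times, in at least 1 of the lines. PPP2R3B encodes PR70, a regulatory subunit of the phosphatase PP2A. Both lines come from melanomas with an NRAS mutation and were made to carry the lentiviral vector pTRIPZ-PPP2R3B, in which a doxycycline-responsive promoter drives PPP2R3B with a Myc tag, and both were selected with puromycin. Each line has 3 groups of 3 RNA sequencing libraries, namely uninduced cells, cells induced with doxycycline for 6 h and cells induced for 18 h as the labels give it. The study's text gives a slightly earlier hour for the last group, and 18 h is used here. The 18 libraries hold no doxycycline-treated cells lacking the vector, so the effects of PPP2R3B and of doxycycline cannot be told apart. Nothing in the labels says that replicates were separate cultures, so p-values measure the spread between these libraries, which may be technical.

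The 5 products act in different places. DLC1 is a GTPase-activating protein found at focal adhesions, and loss of its expression is known from many tumours. MYOF (myoferlin) is a ferlin, a membrane protein with C2 domains that takes part in membrane fusion and repair and in the turnover of receptors at the cell surface. TFPI2 is a secreted Kunitz-type inhibitor of serine proteases such as plasmin that is held in the extracellular matrix. TGM5 is a transglutaminase of the upper epidermis, where it crosslinks proteins of the cornified envelope. ZNF608 is a zinc finger protein of the nucleus and the paralog of ZNF609.

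Induction itself was large in every induced library. PPP2R3B stood between 17.2 and 24.4 CPM in the 6 uninduced libraries and between 343 and 617 CPM in the 12 induced libraries. All levels here are CPM, counts scaled to a common library total, on a scale of trimmed mean of M-values (TMM) shared by the 18 libraries, whose totals ran from 13402645 to 22383470 counts. All 9 melanocytic markers (such as MITF, PMEL and MLANA) stood at 1 CPM or more in every group, with summed levels of 4240 to 4940 CPM in SKMEL2 and 8840 to 9360 CPM in SKMEL30. A pair of SKMEL30 libraries stood apart. Replicate 3 at 6 h held 803 counts of KRT5, a keratin of basal keratinocytes, and 137 CPM over the 8 keratinocyte markers, against 17.5 to 38.6 CPM in the other 8 SKMEL30 libraries. Lower KRT5 counts stood in 18 h replicate 3 (118) and 6 h replicate 1 (38), which were kept throughout, against 0 to 6 in the rest of SKMEL30. Replicate 1 at 18 h had a count for 19 of 20 genes that are high in SKMEL2 and near 0 in SKMEL30, at 0.483% of their SKMEL2 level. The other 8 SKMEL30 libraries had a count for 5 to 16 of those genes, at 0.0241 to 0.152%. The induction values of the 5 genes within SKMEL30 are therefore given with this pair, 6 h replicate 3 and 18 h replicate 1, and again without it.

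**Figure D1:**
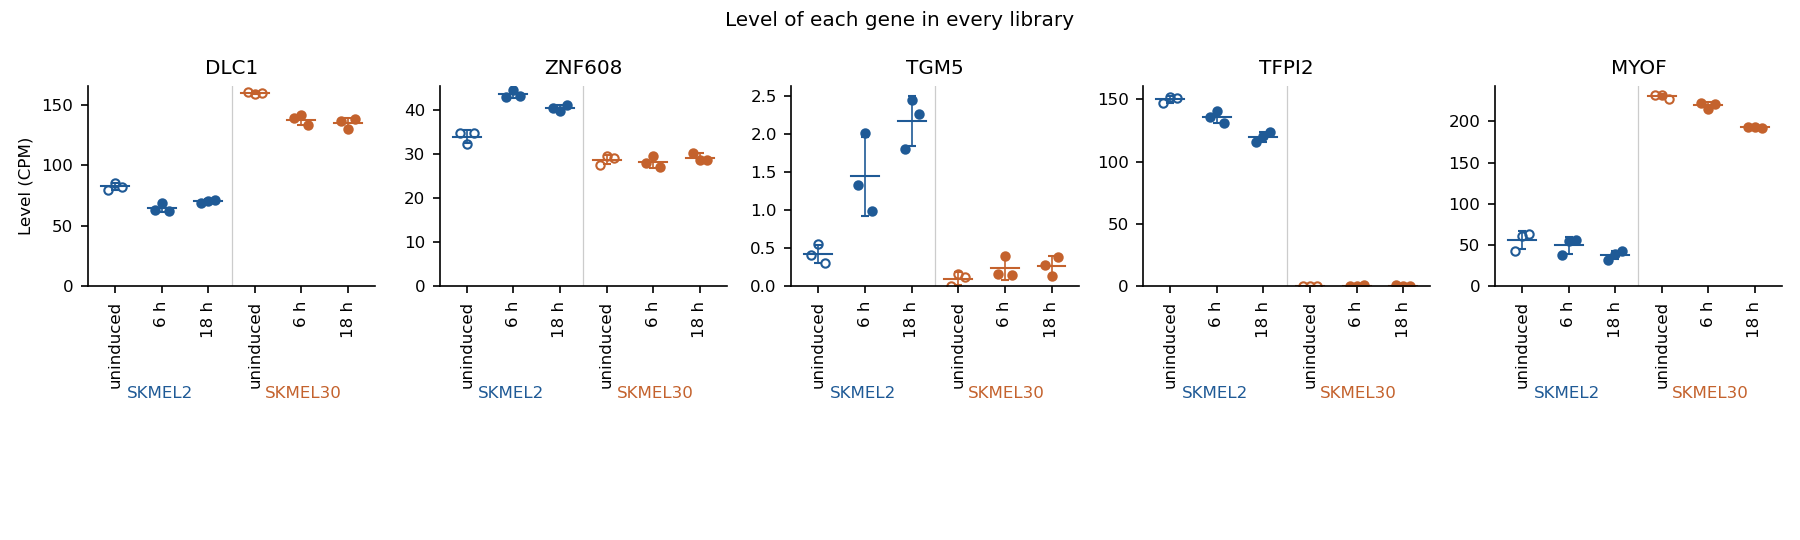
Level of each gene (CPM, y axis from 0, a separate scale for each gene) in every library, by group (x axis). Open points are uninduced and filled points induced libraries, horizontal lines are group means and bars are 1 SD (n = 3). DLC1 and MYOF stood higher in SKMEL30 than in SKMEL2, and TFPI2 and TGM5 were near 0 in SKMEL30.

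The values that chose a gene are no test of it, and they are given first. DLC1 had its smallest p in SKMEL30 at 18 h (edgeR's quasi-likelihood test, adjusted p = 0.00272, rank 18 of 15026 genes) but its best rank in SKMEL2 at 6 h (rank 4 of 16120, adjusted p = 0.321). Neither line is therefore free of the choice of DLC1. ZNF608 had rank 5 in SKMEL2 at 6 h (adjusted p = 0.321), TGM5 rank 3 in SKMEL2 at 18 h (adjusted p = 0.0555) and TFPI2 rank 5 in SKMEL2 at 18 h (adjusted p = 0.106). MYOF had rank 14 in SKMEL30 at 18 h against uninduced cells (adjusted p = 0.000186) and rank 3 there between 18 and 6 h (adjusted p = 0.0381). Of all genes tested, 0.0124% were called at an adjusted p under 0.05 in SKMEL2 at each time, 0.206% in SKMEL30 at 6 h and 0.293% at 18 h. Between 18 and 6 h, 0% were called in SKMEL2, where 2.59% had an unadjusted p under 0.05, and 0.02% were called in SKMEL30. With edgeR fitted per line, 0 of the 5 genes were called in SKMEL2 at either time, 1 (DLC1) was called in SKMEL30 at 6 h and both DLC1 and MYOF were called there at 18 h.

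These calls changed with the fit. In a single fit of the 18 libraries both genes lost their calls in SKMEL30 (adjusted p of DLC1 0.21 at 6 h and 0.0547 at 18 h, and of MYOF 1 at 18 h and between the times). In SKMEL2 that fit called DLC1 at 6 h (adjusted p = 0.00297), ZNF608 at 6 h (0.007) and TGM5 at 18 h (0.0369). DESeq2 called DLC1 (0.0019) and ZNF608 (0.014) at 6 h and TFPI2 at 18 h (8.99e-06) in SKMEL2, and gave no adjusted p for TGM5 and MYOF at 18 h. With no filter on low counts each of the 5 passed in SKMEL2, DLC1 (0.00337) and ZNF608 (0.0279) at 6 h, TFPI2 (0.00432) and MYOF (5.64e-08) at 18 h, and TGM5 at both times (0.000483 and 1.75e-08). The shares of all genes called in these alternative fits are not given here. Their calls therefore do not set the 5 genes apart from other genes.

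DLC1 (ENSG00000164741, chromosome 8 of GRCh38.p14, 13083361 to 13604620) stood lower after induction in both lines and at both times. In SKMEL2 its level was 79.7, 85.5 and 82.4 CPM in uninduced cells, 63.0, 68.9 and 62.5 CPM at 6 h and 68.7, 70.9 and 71.7 CPM at 18 h. Each of the 6 induced SKMEL2 libraries lay below every uninduced one, as was the case for 1.21% of the genes tested in that line. This gave a log2 fold change of -0.35 at 6 h (standard error 0.06) and -0.23 at 18 h (standard error 0.06), that is 0.787 and 0.852 times the uninduced level.

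In SKMEL30 DLC1 stood at 160.7, 159.1 and 159.9 CPM in uninduced cells, at 139.3, 141.5 and 133.0 CPM at 6 h and at 136.3, 129.8 and 138.2 CPM at 18 h. Again each of the 6 induced libraries lay below every uninduced one, which held for 2.24% of genes in SKMEL30. Here DLC1 had a log2 fold change of -0.22 at 6 h and -0.25 at 18 h (standard error 0.03 each), or 0.861 and 0.843 times the uninduced level. The 6 h and 18 h ranges overlapped in each line. Without replicate 3 at 6 h the 6 h value was -0.19, with an adjusted p of 0.0749 in place of 0.0108, and without replicate 1 at 18 h the 18 h value was -0.25. With both left out the values were -0.19 (adjusted p = 0.159) and -0.25 (adjusted p = 0.0151). The 6 h call in SKMEL30 was also lost without uninduced replicate 1 (adjusted p = 0.08) or 3 (adjusted p = 0.05002). The response in SKMEL2 less that in SKMEL30 was -0.14 (standard error 0.07) at 6 h and 0.02 (standard error 0.07) at 18 h. Since the gene was chosen on these contrasts, no test is attached to either difference.

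Before induction DLC1 was lower in SKMEL2 than in SKMEL30. The uninduced libraries are also a side of the contrasts that chose the 5 genes, so differences between the lines in uninduced cells are given with no test. It was 82.5 ± 2.89 CPM (SD, n = 3) against 159.9 ± 0.792 CPM (SD, n = 3), a log2 difference of -0.95 (standard error 0.05). Between the uninduced lines 75.9% of 17133 genes were called, so a difference there is not particular to DLC1. Induced SKMEL30 cells, at 129.8 CPM or more, still stood above every SKMEL2 library.

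MYOF (ENSG00000138119, chromosome 10, 93306429 to 93482334) stood lower at the later time in both lines, and the spread between replicates was much wider in SKMEL2. In SKMEL30, the line that chose it, MYOF stood at 232, 232 and 228 CPM in uninduced cells, at 223, 215 and 222 CPM at 6 h and at 194, 194 and 192 CPM at 18 h. The 3 groups did not overlap, and most of the step came after 6 h. For the order of 18 h below 6 h, 5.65% of genes did the same, and 2.24% had all induced below all uninduced libraries. The log2 fold change was -0.07 (standard error 0.03) at 6 h, -0.26 (standard error 0.03) at 18 h and -0.19 (standard error 0.03) between 18 and 6 h. Without replicate 1 at 18 h the 18 h value was -0.26, and without replicate 3 at 6 h the value between the times was -0.18. With both left out the 6 h value was -0.08, the 18 h value -0.26 (adjusted p = 0.0052) and the value between the times -0.18 (adjusted p = 0.477). The call between the times was lost without any 1 of the libraries concerned other than 6 h replicate 2 (adjusted p from 0.122 to 0.212).

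In SKMEL2, which did not choose MYOF, its level was 43.1, 61.3 and 62.9 CPM in uninduced cells, 37.5, 54.4 and 56.5 CPM at 6 h and 32.0, 38.5 and 42.4 CPM at 18 h. The 3 libraries at 18 h lay below all uninduced ones, as for 6.89% of genes, while at 6 h only 1 of 3 did. MYOF had a log2 fold change of -0.17 at 6 h (standard error 0.17, adjusted p = 0.989) and -0.57 at 18 h (standard error 0.17, 95% interval -0.94 to -0.21, adjusted p = 0.944), so neither passed. The unadjusted p at 18 h was 0.00527, which had rank 90 of 16120 genes, and 4.65% of genes had one under 0.05. Over all induced libraries, 4 of 6 lay below every uninduced library (exact permutation test of 6 against 3 libraries, two-sided p = 0.131, smallest possible 0.0119). With no filter on low counts the 18 h value was -0.58 (standard error 0.09, adjusted p = 5.64e-08). Of 13 alternative fits 2 called MYOF at 18 h in SKMEL2, that with no filter and that with the replicate number as a block. The main fit and the exact test took no account of replicate numbers. In this line replicate 1 was the lowest and replicate 3 the highest library of each group. Within each replicate number the level fell from uninduced to 6 h and to 18 h.

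The response of MYOF at 18 h in SKMEL2 less that in SKMEL30 was -0.32 (standard error 0.18, 95% interval -0.69 to 0.05). Before induction MYOF stood at 55.8 ± 10.99 CPM in SKMEL2 and 230.6 ± 2.38 CPM in SKMEL30 (SD, n = 3 each). That is a log2 difference of -2.04 (standard error 0.13). MYOF was thus lower in SKMEL2 by more than any of its changes within a line.

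**Figure D2:**
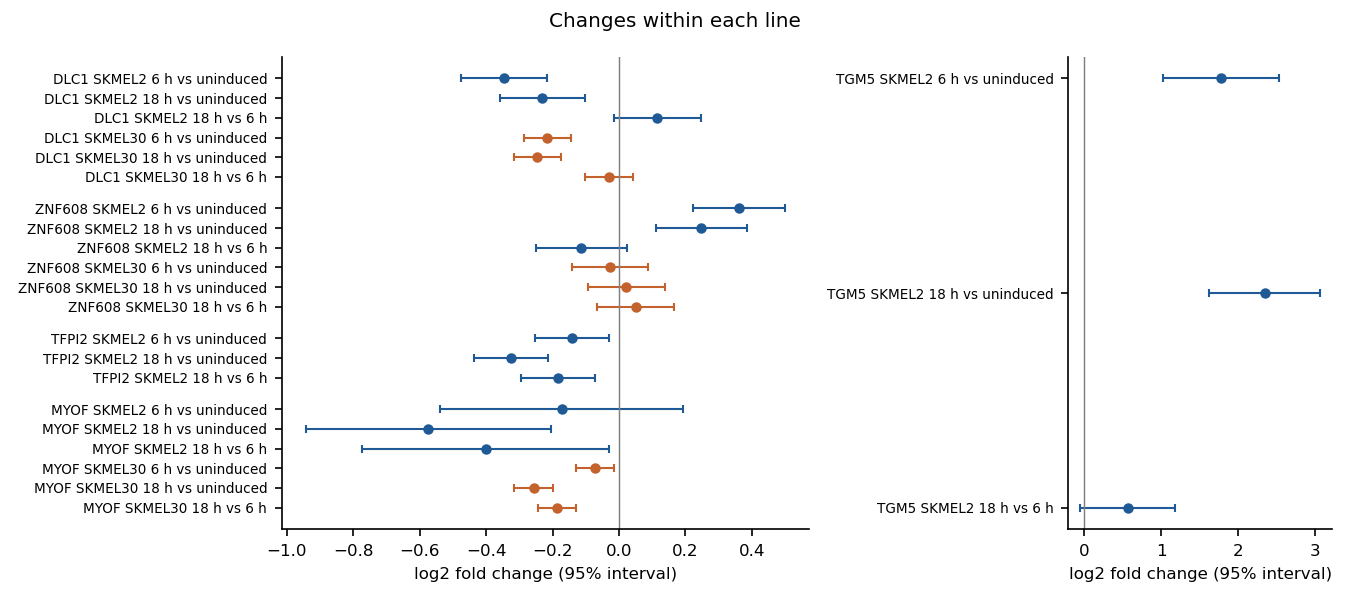
Log2 fold changes (x axis, points) with 95% intervals (bars) from the fit of each line, for the comparisons named on the y axis, SKMEL2 in blue and SKMEL30 in orange, with TGM5 on its own axis. TGM5 and TFPI2 had too few counts in SKMEL30 to be fitted there. DLC1 lay below 0 in both lines at both times, and ZNF608 lay above 0 at both times in SKMEL2 and at -0.03 and 0.02 in SKMEL30.

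TFPI2 (ENSG00000105825, chromosome 7, 93885396 to 93890753, minus strand) was expressed in SKMEL2 and almost absent in SKMEL30. In SKMEL2 its level was 146.7, 152.2 and 151.4 CPM in uninduced cells, 135.7, 140.8 and 131.2 CPM at 6 h and 115.9, 120.5 and 123.8 CPM at 18 h. The 3 groups did not overlap, and each step was downward. Of all genes in SKMEL2, 1.21% had every induced library below the uninduced ones and 3.72% had 18 h below 6 h. TFPI2 had log2 fold changes of -0.14 at 6 h, -0.32 at 18 h and -0.18 between the times (standard error 0.05 each), and the level at 18 h was 0.799 times the uninduced one. These are the values that chose the gene.

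The other line could not be read for a response. The 3 uninduced SKMEL30 libraries held 1, 0 and 0 counts of TFPI2, those at 6 h 1, 0 and 13, and those at 18 h 12, 2 and 0. The uninduced sums were 9019 counts in SKMEL2 and 1 in SKMEL30, a ratio of 8350 (exact 95% interval 1500 to 330000, counting error only). Over the 9 SKMEL30 libraries, 6 induced against 3 uninduced, the exact permutation test gave a two-sided p of 0.202 (smallest possible 0.0119). Without the pair of libraries that stood apart the same test gave a p of 0.543 (smallest possible 0.0286). That pair was picked after the data were seen and held nearly all TFPI2 counts of this line. The second p therefore cannot decide on a response. The 13 and 12 counts fell in exactly the libraries that stood apart. Replicate 1 at 18 h held TFPI2 at 0.482% of its SKMEL2 level, beside 0.483% for the 20 SKMEL2 genes. Replicate 3 at 6 h held TFPI2 at 0.449% and those 20 genes at 0.0643%, beside its 803 counts of KRT5. Without these libraries the highest count of TFPI2 in SKMEL30 was 2.

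The divergent transcript TFPI2-DT had few counts, with 1 to 3 in each of the 9 SKMEL2 libraries and 0 in each of the 9 SKMEL30 libraries. The sequence just before the start of TFPI2 is printed beside that of TGM5, because these are the genes that SKMEL30 hardly expressed and they differ in how rich in CG their starts are. Each is the RefSeq sequence (GRCh38.p14, minus strand, 5′ to 3′) of the 250 bases before the start, chr7:93890754-93891003 for TFPI2 and chr15:43266929-43267178 for TGM5, with every CG in capitals.
TFPI2: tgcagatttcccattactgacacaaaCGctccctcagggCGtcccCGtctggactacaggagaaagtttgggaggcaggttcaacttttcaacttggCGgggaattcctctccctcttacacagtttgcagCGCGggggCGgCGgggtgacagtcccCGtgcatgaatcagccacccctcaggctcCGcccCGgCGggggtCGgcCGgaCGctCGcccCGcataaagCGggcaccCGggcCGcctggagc
TGM5: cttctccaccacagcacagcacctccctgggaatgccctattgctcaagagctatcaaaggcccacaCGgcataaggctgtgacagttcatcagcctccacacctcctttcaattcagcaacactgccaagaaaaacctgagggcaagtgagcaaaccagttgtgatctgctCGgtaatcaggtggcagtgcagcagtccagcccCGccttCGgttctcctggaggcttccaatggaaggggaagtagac
TFPI2 held 20 CG, a number that 32.4% of 35116 such windows reach, and TGM5 held 4, which 70.7% reach. The starts of ZNF608 and MYOF held 6 and 12, and the median over all windows was 11. The letters CG read the same on both strands. Methylation was not measured in these libraries.

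TGM5 (ENSG00000104055, chromosome 15, 43232590 to 43266928) rested on few counts and had the largest fold on induction of the 5 genes in SKMEL2. In SKMEL2 it had 7, 11 and 7 counts in uninduced cells, 24, 35 and 15 at 6 h and 41, 44 and 41 at 18 h. In CPM these were 0.408, 0.547 and 0.308, then 1.33, 2.01 and 0.991, then 1.802, 2.45 and 2.26. Every induced library exceeded the highest uninduced one, as for 1.27% of genes in SKMEL2, while the 6 h and 18 h ranges overlapped. TGM5 had a log2 fold change of 1.78 at 6 h (standard error 0.35) and 2.35 at 18 h (standard error 0.33), or 3.44 and 5.10 times the uninduced level. These are the values that chose the gene.

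In SKMEL30 TGM5 had 0, 3 and 2 counts in uninduced cells, 2, 8 and 3 at 6 h and 5, 2 and 7 at 18 h, too few to pass the filter. Of the 6 induced libraries, 3 lay above every uninduced one (exact permutation test, two-sided p = 0.119). Without the pair that stood apart it was 2 of 4 (two-sided p = 0.229 by the same exact test, smallest possible 0.0286). The sums of 5, 13 and 14 counts have exact 95% intervals of 1.62 to 11.7, 6.92 to 22.2 and 7.65 to 23.5. A change as large as in SKMEL2 was neither shown nor limited at this depth, since the response in SKMEL2 less that in SKMEL30 at 18 h was 0.93 with a 95% interval of -1.08 to 2.93. Before induction the sums were 25 counts in SKMEL2 and 5 in SKMEL30, a ratio of 4.63 (exact 95% interval 1.74 to 15.5, counting error only). The log2 difference from the fit was 2.04, and from 1.46 without uninduced SKMEL30 replicate 1, which had 0 counts, to 2.66 without replicate 2, which had 3.

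TGM5 is a gene of keratinocytes, and keratinocyte markers varied between libraries, so their values are given beside it. The summed level of the 8 markers in SKMEL2 was 54.6 to 73.7 CPM in uninduced cells, 46.1 to 61.4 CPM at 6 h and 45.4 to 72.6 CPM at 18 h, with KRT1 at 0 in all groups. KRT5 had 142, 105 and 82 counts in uninduced SKMEL2, 3, 0 and 61 at 6 h and 133, 134 and 0 at 18 h. TGM5 had 35 counts at 6 h and 41 at 18 h in the libraries where KRT5 was at 0. The other markers were not all low there. KRT10 had 405 and 389 counts in those libraries and TP63 had 386 and 419. KRT14 had 9 and 13, and KRT6A, DSG3 and DSC3 had 0 to 1. Any link between TGM5 and these markers was not tested. In SKMEL30 the library with 803 counts of KRT5 had 3 counts of TGM5.

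**Figure D3:**
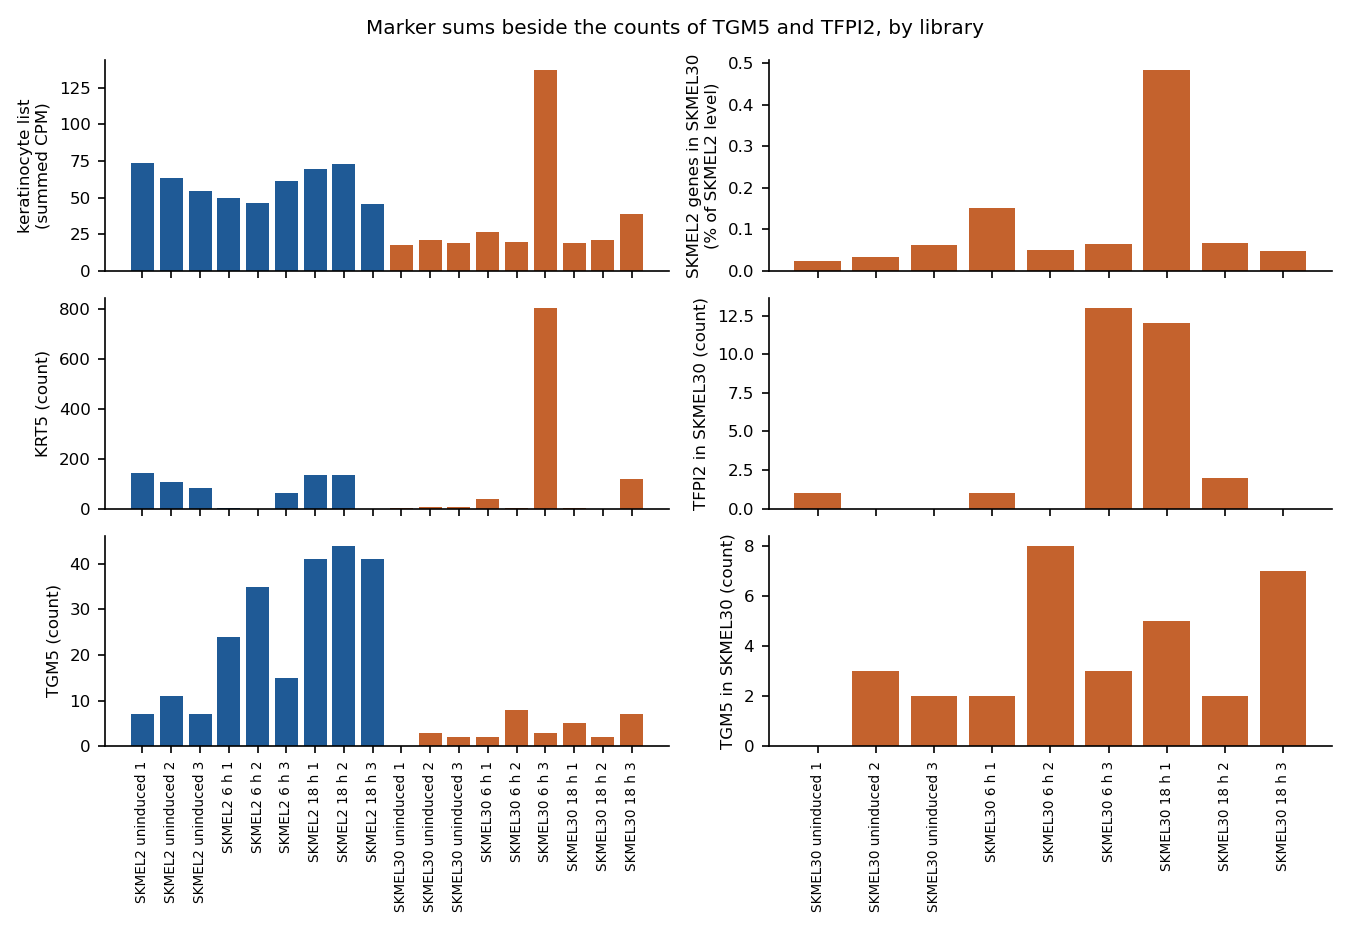
Left, in all 18 libraries, the summed level of the keratinocyte markers (CPM), the count of KRT5 and the count of TGM5. Right, in the 9 SKMEL30 libraries, the level of 20 SKMEL2 genes as a percentage of their SKMEL2 level, the count of TFPI2 and the count of TGM5. The counts of 13 and 12 for TFPI2 stood in the library with 803 counts of KRT5 and in the library at 0.483%, whereas TGM5 was not highest in either.

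ZNF608 (ENSG00000168916, chromosome 5, 124636915 to 124748824) stood higher after induction in SKMEL2 and at the uninduced level in SKMEL30. In SKMEL2 it was at 34.7, 32.2 and 34.8 CPM in uninduced cells, 42.8, 44.5 and 43.1 CPM at 6 h and 40.3, 39.7 and 41.0 CPM at 18 h. Every induced library exceeded the uninduced ones, as for 1.27% of genes, and those at 6 h exceeded those at 18 h, as for 3.72%. In log2 fold change this was 0.36 at 6 h and 0.25 at 18 h (standard error 0.06 each), or 1.29 and 1.19 times the uninduced level.

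In SKMEL30 ZNF608 was at 27.6, 29.4 and 29.1 CPM in uninduced cells, 27.9, 29.6 and 27.0 CPM at 6 h and 30.3, 28.5 and 28.6 CPM at 18 h. The 3 groups overlapped. The log2 fold change was -0.03 at 6 h (95% interval -0.14 to 0.09) and 0.02 at 18 h (95% interval -0.09 to 0.14). Without replicate 3 at 6 h the 6 h value was 0.00458, and without replicate 1 at 18 h the 18 h value was -0.00654. With both left out they were 0.00472 and -0.00672.

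The response of ZNF608 in SKMEL2 less that in SKMEL30 was 0.39 (standard error 0.08) at 6 h and 0.23 (standard error 0.08) at 18 h. The 6 h difference had rank 3 of 17133 genes, so the values in SKMEL30 may also have entered the choice of the gene, and both the difference and the SKMEL30 values are given without a test. Before induction ZNF608 stood at 33.9 ± 1.45 CPM in SKMEL2 and 28.7 ± 0.982 CPM in SKMEL30 (SD, n = 3 each), a log2 difference of 0.24 (standard error 0.05).

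**Figure D4:**
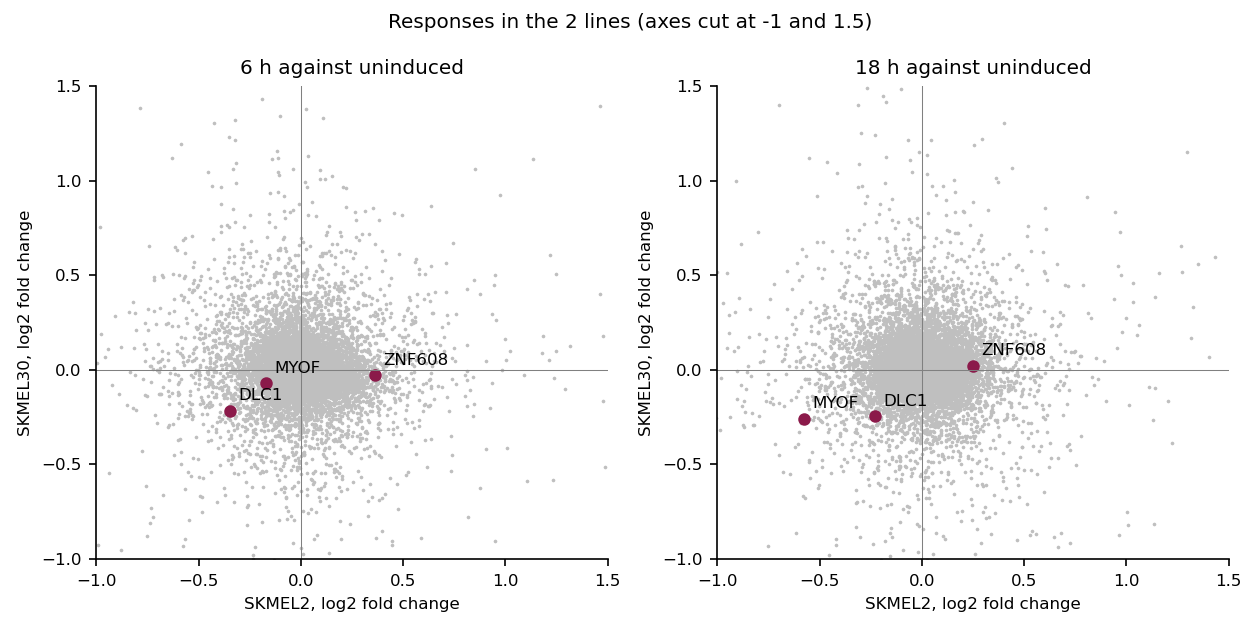
Log2 fold change in SKMEL2 (x axis) and in SKMEL30 (y axis) of the 14079 genes fitted in both lines (grey), at 6 h (left) and 18 h (right), with axes cut at -1 and 1.5. DLC1 and MYOF lie below 0 in both lines at both times, and ZNF608 lies above 0 in SKMEL2 and near 0 in SKMEL30.

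Paralogs and the genes known to work with TFPI2, TGM5, MYOF and ZNF608 were read next, the latter from lists written with earlier results of these data known. Of all genes in SKMEL2, 3.37% had an unadjusted p under 0.05 at 6 h, 4.65% at 18 h and 2.59% between the times, and in SKMEL30 the shares were 6.44%, 9.14% and 5.56%. In SKMEL30 without the pair of libraries that stood apart, 0 genes of these lists were called by edgeR at either time or between the times, with 0 to 6 a list at an unadjusted p under 0.05.

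For TFPI2 the list held the paralog TFPI, serpins, matrix proteases and tissue factor. Negative log2 fold changes were held by 11 of 18 tested genes at 6 h in SKMEL2 (median -0.04), by 15 at 18 h (median -0.11 against -0.00 over all genes) and by 11 between the times (median -0.06). In SKMEL30 they were held by 10, 11 and 12 of 19 in the same order (medians -0.00, -0.03 and -0.02). In SKMEL2 0 were called by edgeR or DESeq2, with 3, 3 and 6 at an unadjusted p under 0.05, and in SKMEL30 3, 6 and 5 had one. TFPI was at -0.10 (standard error 0.14). In SKMEL30 at 6 h 1 of 19 was called. This was THBD (thrombomodulin, a cofactor of thrombin on the cell surface), at -0.27 (standard error 0.05, adjusted p = 0.0496), and the count there was 0 with DESeq2, with relative log expression factors, with all 18 or only the 6 libraries compared in a fit, and without any 1 of those 6 other than uninduced replicate 2. Without the pair that stood apart THBD was at -0.26 (adjusted p = 0.315). At 18 h in SKMEL30 edgeR called 0 of 19 and DESeq2 called 2, SERPINE2 at -0.11 (adjusted p = 0.00186) and the protease inhibitor TIMP3 at 0.09 (adjusted p = 0.00567). The SKMEL30 log2 fold change of SERPINB2, an inhibitor of plasminogen activators, was 4.57 at 6 h (standard error 1.5, adjusted p = 0.548), in the group that holds the library with 803 counts of KRT5. Without the pair SERPINB2 was at 1.98 at 6 h (standard error 1.46, adjusted p = 0.816). At 18 h it was then at 2.999 (standard error 1.254, adjusted p = 0.6625). The 18 h group does not hold the library with 803 counts of KRT5, though its replicate 3 held 118. The source of these SERPINB2 values was not tested.

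For TGM5 the list of transglutaminases and cornified envelope genes was mostly silent. Of 19 genes 4 were tested in SKMEL2 and 3 in SKMEL30, and 0 were called by edgeR or DESeq2, with 0 to 1 at an unadjusted p under 0.05. TGM2, the tissue transglutaminase, had log2 fold changes of -0.23 and -0.42 in SKMEL2 (standard errors 0.11 and 0.10, adjusted p = 0.989 and 0.789) and of -0.11 and -0.15 in SKMEL30. TGM5 and TGM2 thus had opposite signs in SKMEL2. FLG, the precursor of filaggrin, was at 0.21 at 18 h in SKMEL2 (standard error 0.13) and at 0.16 in SKMEL30 (standard error 0.08).

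For MYOF, 20 of 25 ferlins, annexins and other membrane repair genes were tested in SKMEL2 and 19 in SKMEL30, and 0 were called by edgeR, with 1 to 3 at an unadjusted p under 0.05. DESeq2 called 1, AHNAK2, in SKMEL2 at 18 h and between 18 and 6 h, and 0 in SKMEL30. The median at 18 h was -0.01 in SKMEL2 and -0.00 in SKMEL30. AHNAK2, a large scaffold protein, was at 0.49 at 18 h in SKMEL2 (standard error 0.08, adjusted p = 0.106, and 8.99e-06 by DESeq2, which gave 0.00203 between the times) and at 0.27 in SKMEL30 (standard error 0.07, adjusted p = 0.198). ANXA1 was at -0.27 in SKMEL2 (standard error 0.06, adjusted p = 0.652) and at 0.15 in SKMEL30 (standard error 0.04, adjusted p = 0.137). The ferlin DYSF was at 0.35 (standard error 0.39) and -0.04 (standard error 0.33).

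For ZNF608 all 17 genes of ZNF609 and its partners in the cohesin loader and the Integrator complex were tested in each line, and 0 were called by edgeR or DESeq2, with 0 to 1 at an unadjusted p under 0.05. The median at 6 h was 0.04 in SKMEL2 and 0.01 in SKMEL30. ZNF609 itself had log2 fold changes of 0.04 at 6 h and -0.01 at 18 h in SKMEL2 (standard error 0.07 each). In SKMEL30 they were 0.04 at both times (standard error 0.03 each).

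**Figure D5:**
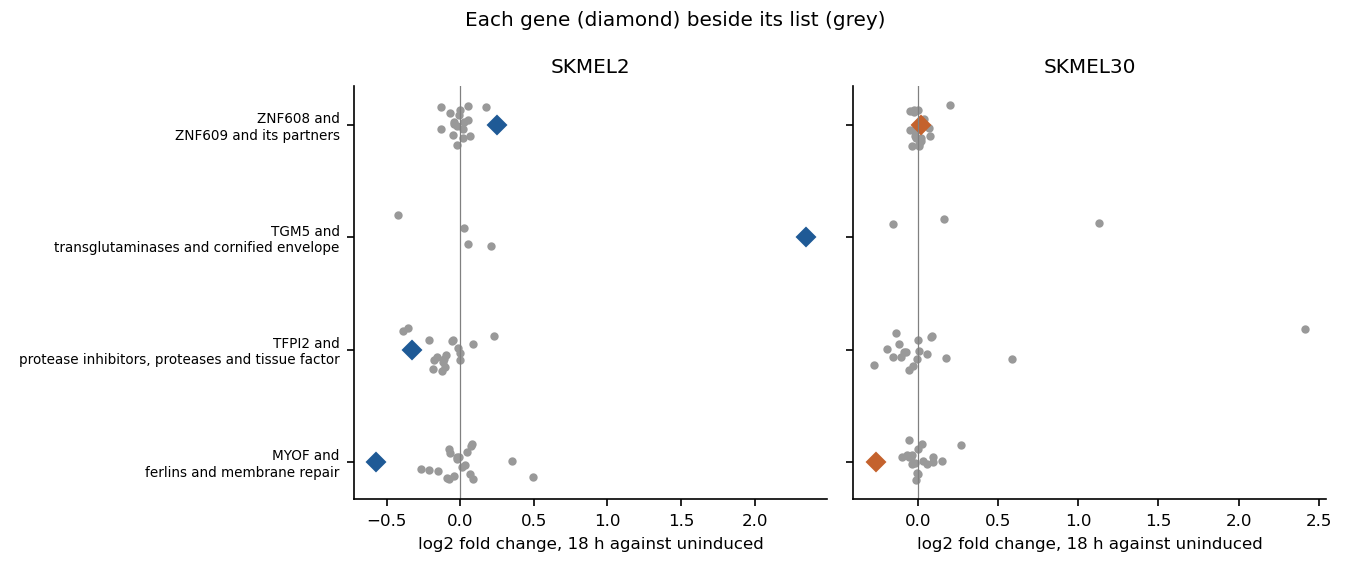
Log2 fold change at 18 h (x axis) of TFPI2, TGM5, MYOF and ZNF608 (diamonds) and of the tested genes of its list (grey points, spread vertically for sight only) in SKMEL2 (left) and SKMEL30 (right). TGM5 and TFPI2 have no diamond in SKMEL30. In SKMEL2 TGM5 lay apart from its list, and TFPI2 lay in a list with 15 of 18 genes below 0 there and 11 of 19 in SKMEL30.

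The genes whose levels followed each of the 5 most closely were taken over the 18 libraries after removal of the line means, among 14079 genes. For DLC1 they were MEF2C (Pearson r = 0.872), POU3F2 (0.857) and PIP4K2A (0.829), a description with no test, since the libraries share their groups. MEF2C and POU3F2 are transcription factors of the melanocyte lineage and of neural cells. MEF2C had log2 fold changes of -0.30 and -0.37 in SKMEL2 (standard error 0.09 each) and of -0.23 and -0.21 in SKMEL30 (standard error 0.04 each). POU3F2 had -0.31 at both times in SKMEL2 (standard error 0.08 each) and -0.31 and -0.21 in SKMEL30 (standard error 0.05 each). The correlations with DLC1 were 0.849 and 0.839 within SKMEL2 and 0.949 and 0.888 within SKMEL30 (9 libraries each), and 0.964 and 0.913 over the 7 SKMEL30 libraries other than the pair that stood apart.

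The matches of the other genes varied in how even they were between the lines. For MYOF the nearest were DNMT1 (r = 0.930, with 0.928 in SKMEL2 and 0.942 in SKMEL30), PPME1 (0.923, with 0.964 and 0.558, or 0.388 over those 7 libraries) and SSRP1 (0.915, with 0.932 and 0.798). PPME1 encodes a methylesterase of the PP2A catalytic subunit, and its own log2 fold change at 18 h was -0.19 in SKMEL2 and -0.05 in SKMEL30. For ZNF608 they were CCNG1 (0.823), TMEM127 (0.799) and PP7080 (0.781), with 0.900, 0.827 and 0.907 in SKMEL2 but 0.235, 0.607 and 0.131 in SKMEL30 (0.142, 0.337 and 0.0656 over the 7). CCNG1, a target of p53, had log2 fold changes of 0.28 and 0.24 in SKMEL2 (standard error 0.06 each) and of 0.07 at both times in SKMEL30. For TGM5 they were UQCRFS1 (0.862), NRAS (0.858) and SPRING1 (0.844). Within SKMEL2 these were 0.922, 0.853 and 0.883. Within SKMEL30, on few counts of TGM5, they were 0.453, 0.889 and 0.615 (0.448, 0.885 and 0.659 over the 7). NRAS itself had log2 fold changes of 0.10 and 0.12 in SKMEL2 (standard error 0.05 each) and of 0.02 at both times in SKMEL30 (standard error 0.03 each). For TFPI2 they were COL12A1 (0.812), CDC26P1 (0.787) and CTSZ (0.756), which rest on its few SKMEL30 counts, as the values within SKMEL2 were 0.477, -0.0157 and 0.309.

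Among themselves the genes formed 10 pairs. In SKMEL2 DLC1 and ZNF608 ran opposite (r = -0.930 over 9 libraries), as did TGM5 and TFPI2 (r = -0.816). In SKMEL30 the values of these pairs were 0.104 and -0.0364 (0.0609 and -0.479 over the 7 libraries). Others had like signs in both lines. TGM5 and MYOF had r = -0.577 in SKMEL2 and -0.582 in SKMEL30 (-0.542 over the 7), and ZNF608 and TGM5 had 0.751 and 0.556 (0.602). DLC1 and MYOF had r = 0.442 in SKMEL2 and 0.735 in SKMEL30 (0.847), and DLC1 and TGM5 had -0.629 and -0.434 (-0.488). TFPI2 had 0.616 with DLC1 and 0.763 with MYOF in SKMEL2. In SKMEL30 these were -0.542 and -0.289 (-0.526 and -0.278 over the 7). All SKMEL30 values of TFPI2 and TGM5 rest on few counts, so like or opposite signs between the lines cannot be read from them. ZNF608 had -0.59 and -0.0972 with TFPI2 (-0.607 over the 7), and -0.357 and -0.339 with MYOF (-0.0322 over the 7). All these values share the groups by which the genes were chosen.

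The tested protein-coding genes on either side of each of the 5 were also read. The 2 neighbours of MYOF, EXOC6 and CEP55, stood at -0.19 and -0.20 at 18 h in SKMEL2 (standard errors 0.07 and 0.10) and at 0.12 and 0.02 in SKMEL30 (standard errors 0.06 and 0.05). GNG11, which starts 30982 bases beyond TFPI2, was at -0.10 at 18 h in SKMEL2 (standard error 0.09), and VPS50 on the other side was at -0.01. CCNDBP1 beside TGM5 was at 0.21 in SKMEL2 (standard error 0.09) and at -0.01 in SKMEL30, and LCMT2 was at 0.07 and -0.03. Beside ZNF608, CSNK1G3 was at -0.03 at 6 h in SKMEL2 (standard error 0.08). C8orf48, which lies inside DLC1, was at -0.08 at 18 h in SKMEL2 and at -0.07 in SKMEL30 (standard errors 0.16 and 0.15), and reads shared by the overlapping genes could not be told apart here. None of these neighbours was called in any comparison within a line.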

How the data were processed

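Libraries were made with the KAPA mRNA HyperPrep kit and sequenced as paired reads of 43 bases. The authors trimmed and aligned reads to the Ensembl GRCh38 transcriptome with STAR and deposited RSEM 1.3.0 expected counts per gene, not scaled for library size. Of these values 12.3% are not whole, but 0 of the 90 values of the 5 genes are not. Counts were rounded and fitted per line (9 libraries) with edgeR 4.0.16 in R 4.3.3 (filterByExpr, TMM, glmQLFit, glmQLFTest, Benjamini-Hochberg over 16120 and 15026 genes), and all 18 libraries together for line differences. The standard error is the size of the log2 fold change over the square root of F. The common coefficient of variation between replicate libraries from edgeR, which may be technical, came to 8.36% for SKMEL2 against 4.11% for SKMEL30. A level of 0 allows up to 3 counts. Exact tests used log2(CPM + 0.5) and 84 splits.

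The 5 genes, the lists and the tests were chosen with earlier results of these data known. Other genes named are paralogs, called list genes, the 3 most correlated genes and the nearest neighbours of each gene. AHNAK2, ANXA1, SERPINB2, SERPINE2, TIMP3 and FLG, and the set of 20 SKMEL2 genes (above 50 CPM in SKMEL2, a median of at most 2 counts in SKMEL30), were chosen after their values were seen. A list of genes around DLC1 is not reported here. Each line's fit was tested on simulated data. In these 200 genes that were not low in counts were changed at 18 h by a log2 change of 0.5 or 1. At a log2 change of 0.5, 64.3% of changed genes were recovered in SKMEL2 and 69.9% in SKMEL30. The changed genes outnumbered those called in the data, and smaller changes, such as those of DLC1, ZNF608 and TFPI2, were not simulated. Between replicates the counts differed by more than counting noise, with a chi-square per degree of freedom of 2.08 to 18.6. Symbols were matched for 95.8% of IDs, and positions are from RefSeq on GRCh38.p14. Alternatives were DESeq2 1.42.0, other factors, filters and sets of libraries, and each library left out in turn.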

Additional observations from a re-analysis of the deposited data

How the results depend on the processing

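For each of the 5 genes all contrasts of the line with its smallest p were taken. Of 198 alternative values there, 194 moved by less than the SD between replicates. That share concerns the size of a change and not its call, and several calls were lost as given above. The alternative fits share most of their libraries. Of 185 alternative values for the other contrasts and the exact tests, 173 kept direction and side of the threshold. These 185 include DLC1 in SKMEL2, ZNF608 in SKMEL30 and the uninduced line differences, which are given here with no test. The line differences were called in every alternative, which raises that share. DLC1 in SKMEL2 at 6 h passed with DESeq2 (-0.35, adjusted p = 0.0019), with no filter on low counts (-0.36, adjusted p = 0.00337) and with all 18 libraries in a single fit (-0.35, adjusted p = 0.00297). MYOF in SKMEL2 passed with no filter at 18 h (-0.58, adjusted p = 5.64e-08) and between 18 and 6 h (-0.39, adjusted p = 0.00423). In the single fit of 18 libraries the adjusted p of DLC1 in SKMEL30 was 0.21 at 6 h and 0.0547 at 18 h, and that of MYOF in SKMEL30 was 1 at 18 h and between the times, with the log2 values within 0.01 of those per line. The cause was not tested. With each library left out in turn, ZNF608 in SKMEL30 ran from -0.065 to 0.00458 at 6 h and from -0.00654 to 0.042 at 18 h, where it was also below 0 (-0.00515) without uninduced replicate 1. Without the pair of SKMEL30 libraries that stood apart, a choice made after seeing the data, ZNF608 there was at 0.00472 at 6 h, -0.00672 at 18 h and -0.0114 between the times, in place of 0.05. TGM5 in SKMEL2 ran from 1.48 to 2.02 at 6 h, from 2.15 to 2.59 at 18 h and from 0.38 to 0.87 between the times, where 6 h replicate 2 moved it most. MYOF in SKMEL2 at 18 h ran from -0.72 to -0.47.

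Over all genes, replicate numbers gave little sign of pairing. In SKMEL2 3 of 9 same-number correlations passed 0.1 (range -0.16 to 0.244), as did 2 of 9 for SKMEL30 (range -0.03 to 0.105). MYOF in SKMEL2 rose from replicate 1 to 2 to 3 in each group, and whether the numbers pair the samples was not tested. With the number as a replicate block MYOF in SKMEL2 at 18 h passed (-0.56, adjusted p = 0.0317), and TGM5 in SKMEL2 at 18 h was 2.37 with an adjusted p of 0.0317 in place of 0.0555. The filter of at least 10 counts in every library left out TGM5, and TFPI2 in fits with SKMEL30. Of 324 alternative counts of called list genes 294 were unchanged or within 1.5 times.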
